A study of Mus musculus with 16 samples.

Results

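The interaction between genotype and infarct asks, for every gene, whether the response of the neonatal ventricle to myocardial infarction (MI) is different without Lrrc10. It was measured on the log2 scale as (KO MI − WT MI) − (KO SH − WT SH), which is the same as the KO response to MI minus the WT response to MI. A value above 0 therefore means that the KO libraries moved upward post-MI relative to their sham (SH) libraries by more than the WT libraries did. Of the 51912 genes in the count table, 20159 were measured, namely those whose 4 libraries together reached 10 counts in every group. The interaction was then described over 52 gene lists that name a pathway, a complex or a cell type. Together they hold 1283 of these genes. RNA was sequenced from 16 ventricle libraries, 4 in each group. WT mice were C57BL/6J animals bought from The Jackson Laboratory, and KO mice carried a whole-body Lrrc10 deletion on a C57BL/6 background, so that the deletion was not limited to the heart. MI was made by tying off the left anterior descending coronary artery on postnatal day 1, and SH mice had neither the heart exposed nor the artery tied. Full ventricles from above and below the ligature were collected 7 days later. The study counts hearts as replicates and mentions no pooling. Lrrc10 had from 1075 to 1850 counts in the WT SH libraries and from 1247 to 1355 in the WT MI libraries. All 8 KO libraries had 0 counts of Lrrc10, which allows at most 3 counts in each, so the targeted gene itself was not tested.

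Lrrc10 encodes a leucine-rich repeat protein of cardiomyocytes that binds actin and alpha-actinin and modulates the L-type calcium channel. In the first days of life the mouse ventricle can replace muscle lost to an infarct by division of the remaining cardiomyocytes, and it loses this capacity as cardiomyocytes leave the cell cycle and turn from glucose to fatty acids as fuel. An infarct also brings neutrophils and macrophages into the tissue, activates fibroblasts and epicardium, and induces the natriuretic peptide genes of the stressed myocardium. In RNA from whole ventricle, fewer cells of a type and less RNA per cell cannot be told apart.

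Libraries held between 33783874 and 57470159 counts. KO MI replicate 7 had the lowest total and stood farthest from the rest of its group. Its median absolute distance over genes was 0.187 on the log2 scale, against 0.156 for KO MI replicate 2 and 0.0741 to 0.127 for the other 14 libraries. The share of counts from mitochondrially encoded genes was 45.5% to 46.7% in WT SH, 46.8% to 47.8% in KO SH, 43.5% to 44.2% in WT MI and 38.1% to 45% in KO MI. Xist RNA, which is made from an inactivated X, was high in 0 of 4 WT SH libraries and in 2 of 4 libraries of each other group, although the series describes equal numbers of males and females. Sex was therefore not balanced within the interaction, and a fit with a term for sex called 8 genes. In that fit the WT response called 437 genes, against 560 without the term. Since KO MI replicate 7 stands apart, results are given with it and, where they change, without it. It was picked from these same data, and leaving out the farthest library lowers the spread within KO MI. Calls and adjusted p-values of the fit without it are therefore likely too favorable and are given as a description.

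With all 16 libraries, 5 genes were called in the interaction, which is 0.0248% of those tested. To be called, a gene had to reach an absolute log2 interaction of 0.5 and a Benjamini-Hochberg adjusted p under 0.1 in the quasi-likelihood test of edgeR. The called genes were Nr4a3, Gm43605, Sik1 and Tomm40 above 0 and Bhlhb9 below 0. At an unadjusted p under 0.05, 1524 genes lay above 0 (7.56%) and 1221 below 0 (6.06%), and 406 genes had an adjusted p under 0.2. The median interaction over all genes was 0.0017, with quartiles of −0.2 and 0.19, and 50.3% of the genes lay above 0. The simple responses called many more genes, with 560 in WT (2.78%) and 1495 in KO (7.42%). Of these, 264 were called in both genotypes in the same direction, which is 47.1% of the WT calls and 17.7% of the KO calls. Of the 1229 genes called only in the KO response, 0 were called in the interaction, so a call in KO alone did not show that the responses differed. KO MI and WT MI are each compared with their own sham group, and the interaction uses all 4 groups.

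The called genes above 0 were led by Nr4a3, which encodes an orphan nuclear receptor of the NR4A family and is an immediate early gene, and which spans bases 48045153 to 48086447 of chromosome 4 (GRCm39, + strand). Its level in CPM, counts per 1000000 counts of the TMM-scaled library, was 23.7, 27.1, 11.8 and 19.2 in the 4 WT SH libraries and 1.78, 3.13, 2.8 and 2.99 in the KO SH libraries. Post-MI it was 5.95, 4.54, 3.73 and 4.21 in WT and 3.44, 7.03, 4.82 and 3.77 in KO. All 4 WT SH libraries lay above all other libraries, and the WT MI and KO MI libraries overlapped. Nr4a3 fell in the WT response by 2.15 on the log2 scale (standard error 0.25, adjusted p = 0.00016, edgeR) and rose in the KO response by 0.84 (standard error 0.27, adjusted p = 0.0485, edgeR). The interaction was 2.99 (standard error 0.36, adjusted p = 0.0033, edgeR), and it was called in each of the 16 fits that left out 1 library (2.74 to 3.18).

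Gm43605 was likewise high in WT SH. It is a transcript of the TEC class, annotated from sequence evidence that awaits experimental proof, and it lies on the − strand of chromosome 5 inside Ppargc1a, a gene on that strand. Its CPM was 29.1, 22.9, 25.5 and 31.3 in WT SH and 5.07, 4.65, 4.99 and 5.72 in KO SH. In WT MI it was 6.43, 5.36, 8.55 and 5.89, and in KO MI it was 4.68, 2.83, 3.32 and 5.06. The WT SH libraries were again apart from all 12 others, and the interaction was 1.68 (standard error 0.23, adjusted p = 0.0121, edgeR), called in each of the 16 fits without 1 library. Gm42613, a TEC transcript on the opposite strand of the same gene, had a log2 interaction of 1.73 (standard error 0.32) that was not called (adjusted p = 0.135, edgeR). Ppargc1a, the coactivator of mitochondrial biogenesis, had an interaction of −0.17 (standard error 0.23, adjusted p = 0.79, edgeR). Reads of Gm43605 and of unspliced Ppargc1a cannot be told apart, since both come from 1 strand.

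Sik1, a salt-inducible kinase whose transcription responds to cAMP, was likewise highest in WT SH. Its CPM there was 50.4, 45.4, 41.4 and 44.2, against 15.4, 19.8, 19.3 and 19.9 in KO SH. It was 22.2, 21.2, 21.5 and 27.3 in WT MI and 16.1, 16.2, 16.9 and 18.3 in KO MI. The KO MI libraries lay below the WT MI libraries without overlap, and they overlapped the KO SH libraries. Sik1 fell in the WT response by 0.98 on the log2 scale (standard error 0.09, adjusted p = 4.6e-05, edgeR), whereas the KO response was −0.14 (standard error 0.09, adjusted p = 0.376, edgeR). Its interaction of 0.84 (standard error 0.13, adjusted p = 0.0399, edgeR) lost the call in 6 of the 16 fits without 1 library, where the adjusted p reached 0.138. These were the fits without WT SH replicate 1 or 2, KO SH replicate 3, WT MI replicate 1 or 3, or KO MI replicate 3.

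In the other 2 called genes KO SH had the mean farthest from the other groups. Tomm40, the pore subunit of the translocase that imports proteins across the outer mitochondrial membrane, was at 22.9, 22.7, 23.1 and 21.4 CPM in WT SH and at 17.4, 17.9, 17.9 and 17 CPM in KO SH. It was at 17.8, 20.7, 19.8 and 16.6 CPM in WT MI and at 22.1, 25.1, 23.5 and 19.5 CPM in KO MI, so the order of the genotypes was opposite in the sham and the MI libraries, with WT MI and KO MI overlapping and WT MI also reaching into and below the KO SH range. The interaction of Tomm40 was 0.63 (standard error 0.11, adjusted p = 0.0877, edgeR). Bhlhb9, of the GPRASP family on the X chromosome, was at 37.7, 38.6, 39 and 34.8 CPM in WT SH and at 52.9, 55.9, 50.9 and 53 CPM in KO SH. Post-MI the genotypes overlapped, at 45.8, 45.5, 43.4 and 44 CPM in WT and 46.7, 40.5, 42 and 48.8 CPM in KO, and the interaction was −0.51 (standard error 0.08, adjusted p = 0.0635, edgeR). Both calls were lost in 13 of the 16 fits without 1 library, where the adjusted p reached 0.215 for Tomm40 and 0.192 for Bhlhb9. Only the fits without WT SH replicate 4, WT MI replicate 2 or KO MI replicate 7 kept Tomm40, and only those without WT SH replicate 3, KO MI replicate 1 or KO MI replicate 7 kept Bhlhb9. Tomm40 overlaps the span of the lncRNA Lncob1 on the opposite strand, and Bhlhb9 overlaps the spans of Gprasp1 and Gprasp2 on its own strand. Whether these genes share exons was not examined. Any reads of Bhlhb9 that also match Gprasp1 or Gprasp2 were divided by estimation.

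**Figure D1:**
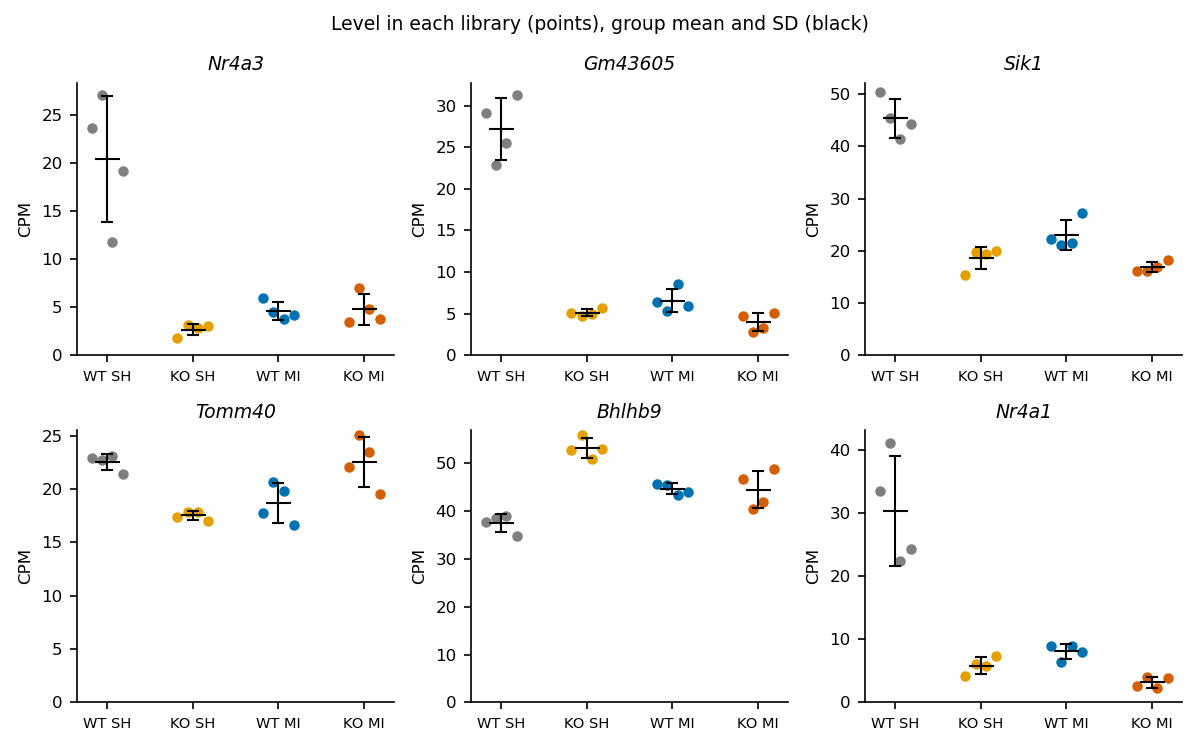
Level in CPM of the 5 genes called in the interaction and of Nr4a1, which was not called (adjusted p = 0.19, edgeR), in each of the 16 libraries (points), with the group mean and SD (black, n = 4), on linear axes from 0. Nr4a3, Gm43605, Sik1 and Nr4a1 were highest in all 4 WT SH libraries, whereas KO SH was above all other libraries for Bhlhb9 (50.9 to 55.9 CPM) and overlapped WT MI for Tomm40 (17 to 17.9 CPM).

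The promoter windows of the NR4A receptor genes are printed since all 3 genes had their highest group mean in WT SH and belong to a family known to be induced through cAMP and CREB. The sequences are those of RefSeq on GRCm38.p6, from 250 bases before to 50 bases after the start of transcription and on the strand of the gene. They lie at chr4:48045055-48045354 (+) for Nr4a3, chr15:101266596-101266895 (+) for Nr4a1 and chr2:57123954-57124253 (−) for Nr4a2. Capitals mark the half-site of the cAMP response element, TGACG on either strand, so that it reads TGACG or CGTCA.
Nr4a3: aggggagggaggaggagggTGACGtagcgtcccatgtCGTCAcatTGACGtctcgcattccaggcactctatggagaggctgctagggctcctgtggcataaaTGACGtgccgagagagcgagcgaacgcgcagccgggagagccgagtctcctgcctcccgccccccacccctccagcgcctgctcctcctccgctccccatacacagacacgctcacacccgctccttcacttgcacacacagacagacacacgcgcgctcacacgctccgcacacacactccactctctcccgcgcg
Nr4a1: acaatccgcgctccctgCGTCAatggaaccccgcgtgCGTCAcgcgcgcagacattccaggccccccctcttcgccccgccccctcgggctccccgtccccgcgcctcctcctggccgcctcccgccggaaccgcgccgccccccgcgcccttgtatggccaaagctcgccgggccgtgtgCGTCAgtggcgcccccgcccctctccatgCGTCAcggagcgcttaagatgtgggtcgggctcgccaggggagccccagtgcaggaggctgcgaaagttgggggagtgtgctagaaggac
Nr4a2: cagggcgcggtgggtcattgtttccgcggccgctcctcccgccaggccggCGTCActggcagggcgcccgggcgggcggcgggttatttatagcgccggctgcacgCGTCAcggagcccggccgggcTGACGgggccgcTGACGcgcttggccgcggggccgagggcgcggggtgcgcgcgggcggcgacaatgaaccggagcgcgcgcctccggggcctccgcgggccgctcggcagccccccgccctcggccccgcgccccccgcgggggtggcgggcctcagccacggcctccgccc
Each window holds 4 half-sites and 0 copies of the full palindrome TGACGTCA. Of the 32851 promoter windows of this length, 20.8% hold at least 1 half-site, 0.231% hold at least 4, and 1.79% hold the full site. The windows of Tomm40, Bhlhb9 and Irs2 hold 0 half-sites, and the 2 windows of the clock gene Per1 hold at most 1. No window was available for Sik1 or Gm43605. A match in a window is a description of its letters and not evidence of binding.

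Nr4a1, an NR4A receptor gene of the immediate early class, was at 33.5, 41.2, 22.4 and 24.3 CPM in WT SH and at 4.19, 6.02, 5.72 and 7.37 CPM in KO SH. It was at 8.87, 6.41, 9 and 8.01 CPM in WT MI and at 2.62, 4, 2.27 and 3.93 CPM in KO MI. Nr4a1 fell in both genotypes post-MI, by 1.91 on the log2 scale in WT (adjusted p = 8.65e-05, edgeR) and by 0.87 in KO (adjusted p = 0.0193, edgeR), and its interaction of 1.05 (standard error 0.3) was not called (adjusted p = 0.19, edgeR). Nr4a2 had an interaction of 0.6 (standard error 0.2, adjusted p = 0.217, edgeR). Irs2, the insulin receptor substrate, was at 77.4, 68.3, 52.8 and 57.4 CPM in WT SH and at most 27.9 CPM in any other library, and its interaction of 1.18 (standard error 0.28) was not called either (adjusted p = 0.15, edgeR). Among the 27 immediate early genes tested, 17 lay above 0 and 10 below, with 6 above and 4 below at an unadjusted p under 0.05 and Nr4a3 the only call. Their median interaction of 0.23 became 0.35 without KO SH replicate 4, and −0.03 without KO MI replicates 2 and 7, a pair chosen after seeing the data.

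The group that stood apart in each gene was taken as the one whose mean log2 level lay farthest from the mean of the other 3. Over all genes this was KO SH for 33.1%, WT SH for 26.5%, KO MI for 24.3% and WT MI for 16.1%. Among the 2745 genes with an unadjusted p under 0.05, it was KO SH for 46.7%, WT SH for 26.6%, KO MI for 19.2% and WT MI for 7.47%. These genes were selected by the same values, so the shares are a description. Over the 52 lists, scored as the mean log2(CPM + 0.5) of the tested members, the group farthest away was KO SH for 23 lists, KO MI for 14, WT SH for 13 and WT MI for 2. In 21 of the 23 lists, KO SH was the lowest group. Many of the positive list interactions described here thus came with a low sham level in KO.

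Of the 52 lists, 40 had a median interaction above 0, 11 below 0 and 1 at 0.00, and 24 lists had at least 3 of 4 tested members above 0. Of the list genes, 71.2% lay above 0, against 50.3% of all genes and 55.7% of the protein coding genes. Among protein coding genes this share was higher at higher levels, from 47.6% under a mean of 1 CPM to 65.3% from 100 CPM, and lists were not matched on level. Called members were found in 1 list with all libraries, so the lists are described by counts and medians, with no test of a list as a whole. The lists farthest below 0 were those of neutrophils (−1.47) and epicardium (−0.59). Those farthest above were skeletal muscle (1.38), atrial cardiomyocytes (1.12), globin and erythroid genes (0.67) and the fetal and stress program (0.59). For a further comparison, the response of each MI library over the mean sham level of its own genotype was set side by side. This takes the sham mean as fixed, so a lack of overlap leaves out the spread of the sham libraries. Over all genes, the 4 KO responses lay above the 4 WT responses without overlap in 7.61% and below them in 7.9%.

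**Figure D2:**
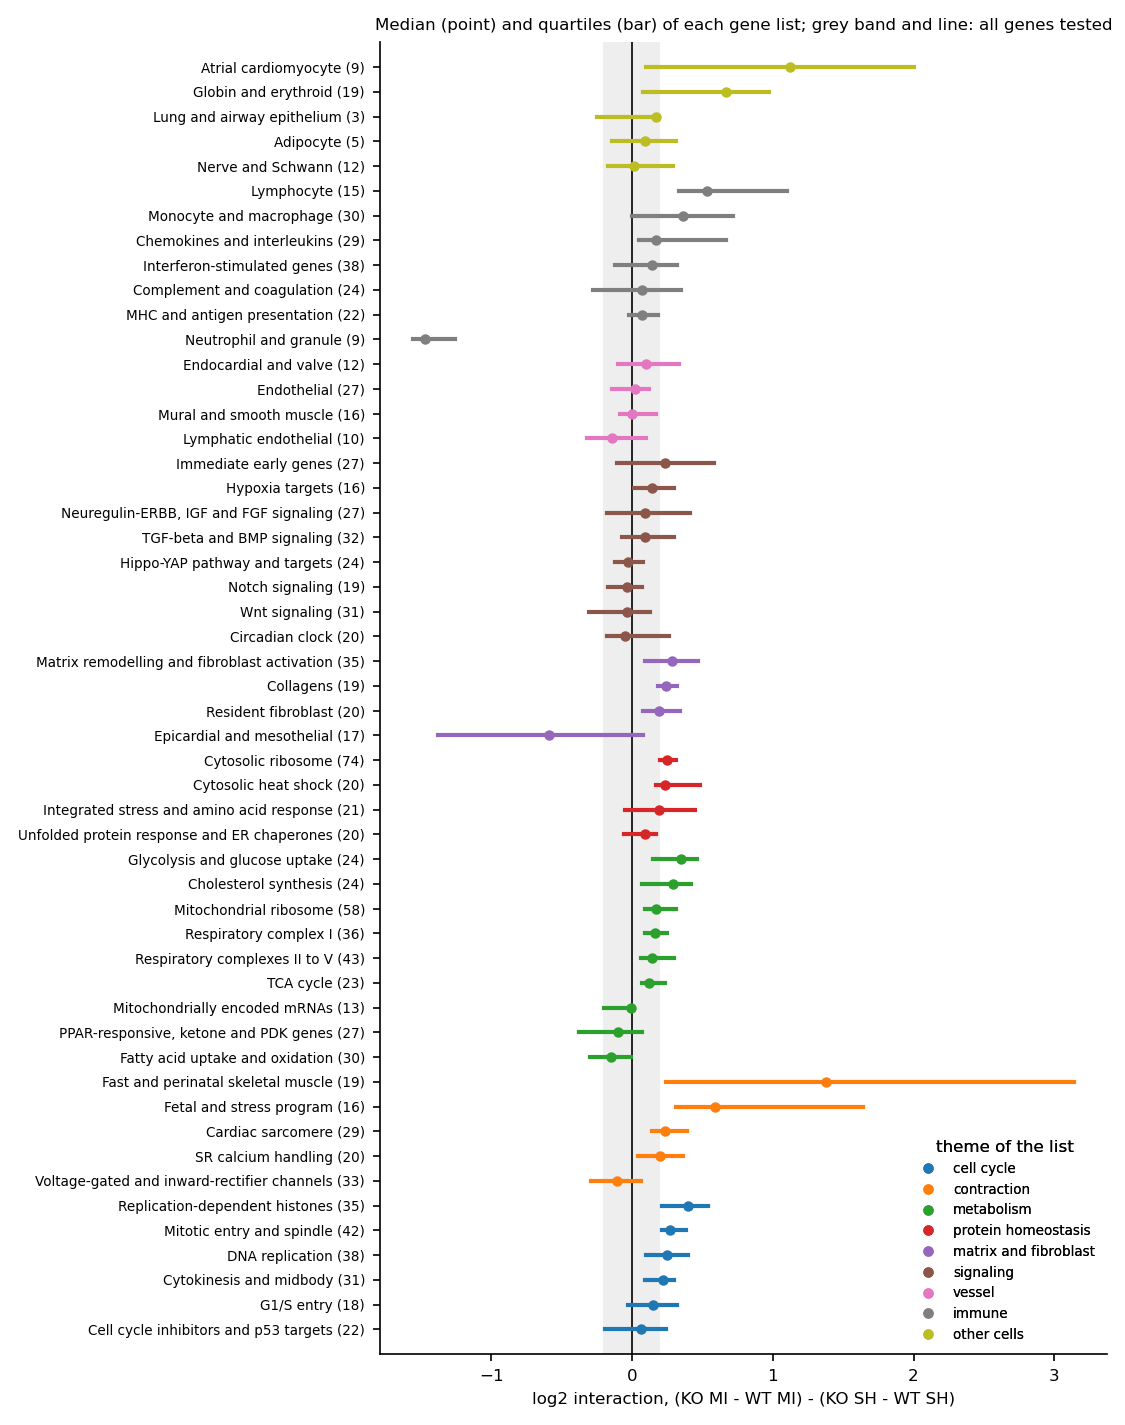
Median (point) and quartiles (bar) of the log2 interaction of the tested members of each gene list, with the number of tested members in parentheses, grouped by theme, and the quartiles of all genes tested as a grey band (−0.2 to 0.19). Of the 52 lists, 40 medians lie above 0, and the neutrophil (−1.47) and epicardial (−0.59) lists lie farthest below it.

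**Figure D3:**
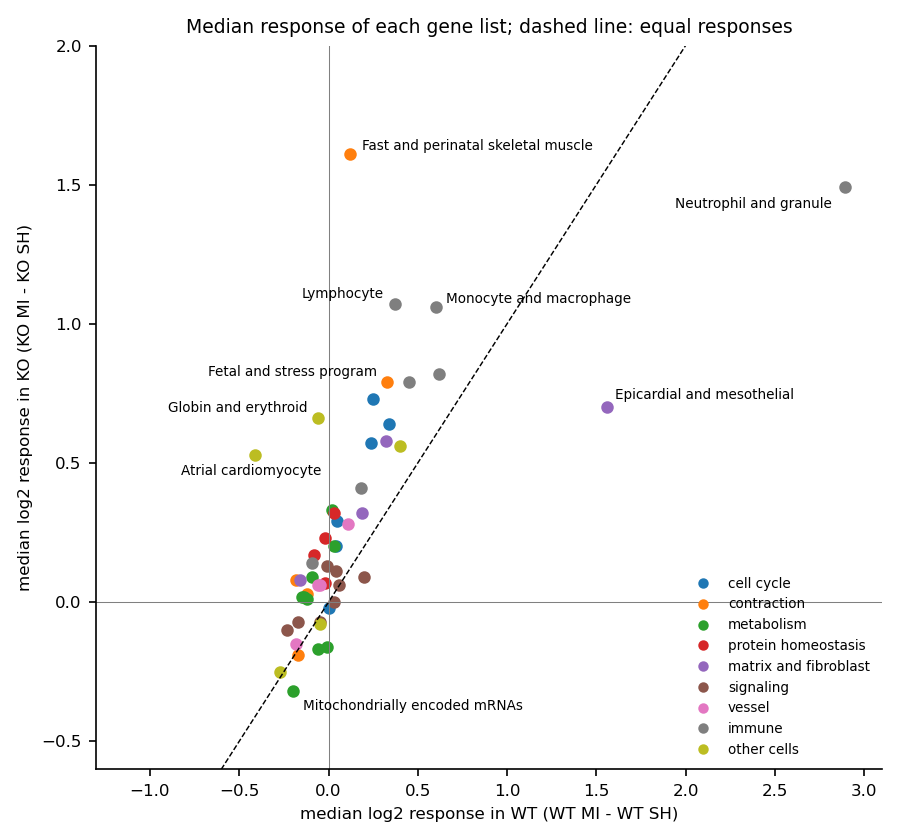
Median log2 response to MI of the tested members of each list in KO (vertical axis) against WT (horizontal axis), where the dashed line marks equal responses. The neutrophil list (2.89 in WT and 1.49 in KO) and the epicardial list (1.56 and 0.7) lie below the line, and the skeletal muscle list (0.12 and 1.61) lies far above it.

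Cell cycle lists lay above 0, with a low KO SH level. All 42 mitotic entry and spindle genes lay at or above an interaction of 0, with 15 at an unadjusted p under 0.05 and a median of 0.27. In the simple responses, 38 of the 42 were called higher in KO and 4 in WT, against 1070 and 430 of all 20159 genes. Genes without a call may also have risen, since the median response was 0.64 in KO and 0.34 in WT. Of the 42 genes, 0 were called in the interaction. The score of the list rose over the own sham mean by 0.37, 0.42, 0.21 and 0.34 in the WT MI libraries and by 0.45, 0.89, 0.65 and 0.39 in the KO MI libraries, so that the genotypes overlapped only through KO MI replicate 7 and WT MI replicate 2. The sham score was lower in KO (3.67 ± 0.07) than in WT (3.87 ± 0.12, SD, n = 4), and the MI scores were close, at 4.26 ± 0.22 and 4.2 ± 0.09. Mki67, the proliferation antigen that coats mitotic chromosomes, shows this form. It was at 333, 282, 301 and 353 CPM in WT SH, at 259, 241, 232 and 228 CPM in KO SH, at 355, 387, 336 and 361 CPM in WT MI and at 345, 459, 382 and 361 CPM in KO MI. The KO SH libraries were below all others, the MI groups overlapped, and the interaction was 0.51 (standard error 0.12, adjusted p = 0.148, edgeR).

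Of the 38 DNA replication genes, 35 lay above 0, with 16 above and 0 below at an unadjusted p under 0.05, and their median was 0.25. The responses of the list score did not overlap, at 0.08, 0.2, −0.03 and 0 in WT MI and 0.21, 0.43, 0.33 and 0.2 in KO MI. WT MI replicate 2 and KO MI replicate 7 differed only beyond the printed digits. The scores themselves overlapped, at 3.27 to 3.51 in WT MI and 3.33 to 3.56 in KO MI. Mcm3, a subunit of the replicative helicase, was at 26.5, 26.6, 21.1 and 21.5 CPM in WT SH and at 19.3, 18.2, 16.4 and 17.4 CPM in KO SH. It was at 23, 25.6, 22.3 and 21.5 CPM in WT MI and at 23.8, 29.7, 26.1 and 23.9 CPM in KO MI, with KO SH below all other libraries and an interaction of 0.59 (standard error 0.13, adjusted p = 0.146, edgeR). Replication-dependent histone genes, which are transcribed in S phase, had 31 of 35 members above 0 and a median of 0.4, with 9 above at an unadjusted p under 0.05. Their responses of 0.18 to 0.34 in WT MI lay below those of 0.37 to 0.78 in KO MI. The cytokinesis and midbody genes had 27 of 31 members above 0 and a median of 0.22, which was 0.12 without KO MI replicate 2. Within that list Myl9, a regulatory light chain of smooth and nonmuscle myosin, had an interaction of 1.45 (standard error 0.29, adjusted p = 0.143, edgeR). By contrast, the 22 tested inhibitors and p53 targets were split, with 12 above 0, 10 below and a median of 0.06 that turned to −0.02 without WT SH replicate 1.

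The cytosolic ribosome had a small interaction of nearly 1 size across its genes. Of its 74 protein genes, 72 lay above 0, 43 of them at an unadjusted p under 0.05. In 38 of the 74 the KO responses lay above the WT responses without overlap, against 7.61% of all genes. The median was 0.25, with quartiles of 0.2 and 0.31, and 0 genes were called. The score moved over its own sham mean by −0.06, 0.08, 0.02 and −0.1 in WT MI and by 0.14, 0.35, 0.23 and 0.16 in KO MI. KO SH had the lowest score (5.44 ± 0.04), and WT SH, WT MI and KO MI were at 5.67 ± 0.11, 5.65 ± 0.08 and 5.66 ± 0.1 (SD, n = 4). Rpl18, of the large subunit, was at 35.6, 35.8, 34.1 and 28.5 CPM in WT SH, 27.2, 27.6, 27.5 and 26 CPM in KO SH, then 30.2, 35.6, 31 and 30.9 CPM in WT MI and 32.6, 36.1, 32.8 and 31.6 CPM in KO MI. All KO SH libraries were below the other 12, and the interaction was 0.37 (standard error 0.1, adjusted p = 0.188, edgeR). The mitochondrial ribosome had 52 of 58 genes above 0, 14 of them at an unadjusted p under 0.05, and a median of 0.17. Its score responses were −0.09, −0.06, −0.09 and −0.1 in WT MI and 0.17, 0.16, 0.13 and −0.09 in KO MI, so KO MI replicate 7 alone lay with WT.

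The interactions of fuel genes split by pathway, but the group that stood apart was KO SH for glycolysis and KO MI for fatty acids. Glycolysis and glucose uptake had 21 of 24 genes above 0, with 11 above and 0 below at an unadjusted p under 0.05 and a median of 0.35. Fatty acid uptake and oxidation had 23 of 30 genes below 0, with 11 below and 1 above at an unadjusted p under 0.05 and a median of −0.15. The glycolysis score changed over its own sham mean by 0.06, 0.04, −0.06 and 0.03 in WT MI and by 0.3, 0.5, 0.41 and −0.03 in KO MI, with KO MI replicate 7 at the WT level. The mean score was 5.59 in WT SH, 5.36 in KO SH, 5.61 in WT MI and 5.65 in KO MI. KO was thus lower than WT in sham, and the MI groups were close. The median interaction was 0.23 without KO MI replicate 2 and 0.46 without KO MI replicate 7. Hk2, which commits glucose by phosphorylation, was at 115, 104, 106 and 97.9 CPM in WT SH, 81.7, 83.4, 75 and 80.1 CPM in KO SH, then 80.9, 82.4, 72.1 and 79.8 CPM in WT MI and 90.5, 89.2, 89.3 and 62.2 CPM in KO MI. Only the WT SH libraries were apart, the other groups overlapped, and the interaction was 0.47 (standard error 0.13, adjusted p = 0.186, edgeR). In KO MI the level of Gapdh was 614, 703, 628 and 353 CPM, against 409 to 450 CPM for KO SH and 494 to 570 CPM for WT MI, so replicate 7 was below both groups.

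In the fatty acid list the KO MI libraries were the ones apart, replicate 7 among them. Decr1, which reduces the intermediates of unsaturated fatty acids, was at 121, 113, 121 and 114 CPM in WT SH, 124, 119, 119 and 117 CPM in KO SH, then 121, 119, 123 and 144 CPM in WT MI and 109, 95.8, 96.3 and 99.8 CPM in KO MI. Its interaction was −0.37 (standard error 0.09, adjusted p = 0.146, edgeR). Hadha, the alpha subunit of the mitochondrial trifunctional protein, was at 658, 542, 570 and 646 CPM in KO MI and at 677 to 802 CPM in the 12 other libraries, with an interaction of −0.32 (standard error 0.1, adjusted p = 0.202, edgeR). Mlycd, which clears the malonyl-CoA that blocks entry of fatty acids into mitochondria, was at 18.4 to 22.2 CPM in KO MI and at 22.8 to 27 CPM elsewhere (interaction −0.3, standard error 0.09, adjusted p = 0.197, edgeR). For these 3 genes all KO MI libraries lay below all others. The score of the list was 6.65 ± 0.09 in KO MI and 6.81 to 6.89 in the means of the other groups. Its responses over the own sham mean overlapped, at −0.09 to 0.06 in WT MI and −0.26 to −0.06 in KO MI. Leaving out 1 library moved the median interaction between −0.19 and −0.1.

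The list of PPAR-responsive, ketone and pyruvate dehydrogenase kinase (PDK) genes had 17 of 27 members below 0, with 8 below and 3 above at an unadjusted p under 0.05 and a median of −0.1 that ran from −0.19 without KO MI replicate 1 to −0.04 without WT SH replicate 4. Single genes of this list had larger interactions, which depended on KO MI replicate 7. Txnip, which limits glucose uptake, was at 218, 200, 166 and 186 CPM in WT SH and at 322, 282, 362 and 326 CPM in KO SH. It was at 259, 242, 288 and 280 CPM in WT MI and at 161, 112, 132 and 348 CPM in KO MI, where replicate 7 lay among the KO SH libraries and the other 3 lay below all other libraries. The interaction was −1.25 (standard error 0.33, adjusted p = 0.179, edgeR), and without KO MI replicate 7 it was −1.73 (standard error 0.15, adjusted p = 5.73e-05, edgeR). Oxct1, which uses ketone bodies, lay above 0 instead, at 325, 406, 355 and 141 CPM in KO MI against 161 to 189 CPM in KO SH and 231 to 312 CPM in WT. Its interaction of 0.97 (standard error 0.28, adjusted p = 0.19, edgeR) was 1.21 (standard error 0.11, adjusted p = 6.22e-05, edgeR) without replicate 7.

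**Figure D4:**
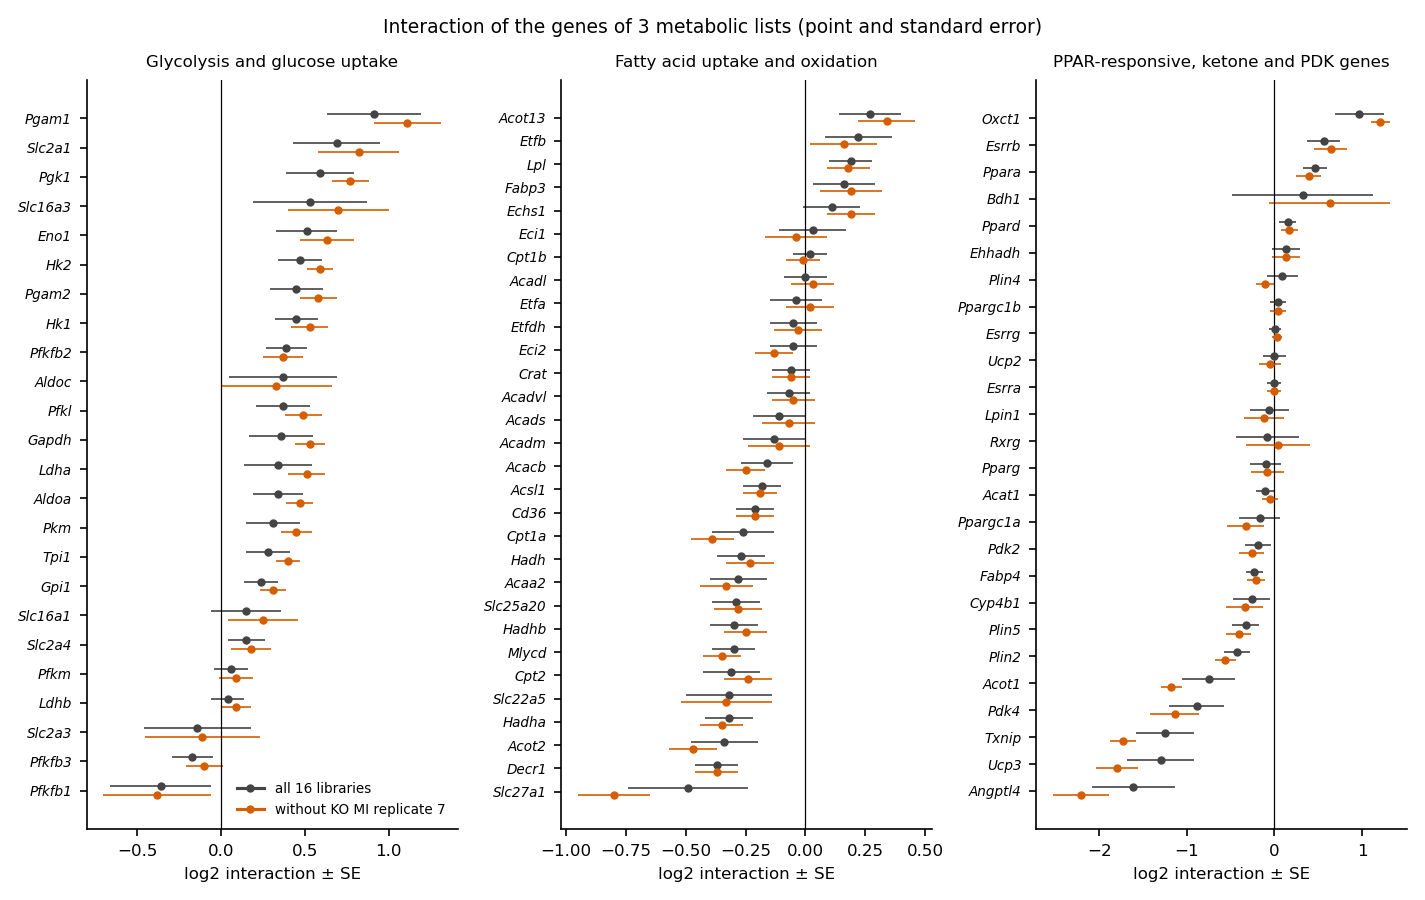
Log2 interaction with its standard error for tested genes of the glycolysis, fatty acid and PPAR-responsive lists, with all 16 libraries (grey) and without KO MI replicate 7 (orange). Glycolysis genes lie mostly above 0 (21 of 24) and fatty acid genes mostly below (23 of 30), and leaving out replicate 7 moves Txnip from −1.25 to −1.73.

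The nuclear genes of the respiratory chain lay slightly above 0. Complex I had 32 of 36 genes above 0 and a median of 0.16, and complexes II to V had 38 of 43 above 0 and a median of 0.14, with 7 and 12 genes above 0 at an unadjusted p under 0.05. For both lists the group farthest from the others was WT SH, which was high. The median of complexes II to V was 0.07 without KO MI replicate 1 and 0.26 without KO MI replicate 7, and that of complex I was 0.09 without WT SH replicate 1. Cox8a, a subunit of cytochrome c oxidase, had an interaction of 0.62 (standard error 0.15, adjusted p = 0.15, edgeR). The 13 mRNAs encoded in the mitochondrial genome had 5 members above 0, 8 below and a median of −0.01 (−0.12 without KO MI replicate 1 and 0.03 without KO MI replicate 7). Their mean interaction was −0.19, and the interaction of the list score was −0.22. The mitochondrial share of the counts was lowest in KO MI replicate 2 (38.1%), whereas KO MI replicate 1 (45%) lay above WT MI (43.5% to 44.2%). Most of this share was the ribosomal RNA mt-Rnr2, with 29.8% of the counts in KO MI replicate 2 and 35% in replicate 1, so it does not measure the mRNAs. The 23 genes of the tricarboxylic acid cycle had a median of 0.12, which was 0.04 without KO MI replicate 1 and 0.23 without KO MI replicate 7.

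Cardiac sarcomere genes had a lower mean list score in WT MI (9.07) than in WT SH (9.21) and a higher one in KO MI (9.17) than in KO SH (9.06). The libraries overlapped in both genotypes. They ran from 9.03 to 9.42 in WT SH and 9.04 to 9.09 in WT MI. In KO they ran from 9.02 to 9.11 in SH and 9.04 to 9.44 in MI. Of the 29 genes, 26 lay above 0, 11 of them at an unadjusted p under 0.05. In 11 of the 29 the responses did not overlap with KO above, against 7.61% of all genes. The score changed over its own sham mean by −0.17, −0.12, −0.12 and −0.15 in WT MI and by 0.08, 0.38, 0.02 and −0.02 in KO MI. The median interaction was 0.23, with a range of 0.18 to 0.29 over the fits without 1 library. Tnnc1, cardiac troponin C, was at 959, 732, 806 and 720 CPM in WT SH, 605, 648, 660 and 625 CPM in KO SH, then 680, 771, 768 and 748 CPM in WT MI and 789, 978, 791 and 664 CPM in KO MI. KO SH was below all other libraries, and the interaction was 0.46 (standard error 0.14, adjusted p = 0.203, edgeR). The genes of calcium handling by the sarcoplasmic reticulum had 15 of 20 members above 0 and a median of 0.2. Their responses did not overlap but nearly met (−0.16 to −0.09 in WT MI and −0.08 to 0.17 in KO MI). The scores of WT SH (6.79 to 7) overlapped those of WT MI (6.75 to 6.82), and KO SH (6.64 to 6.74) overlapped KO MI (6.62 to 6.88). Voltage-gated and inward-rectifier channel genes lay the other way, with 22 of 33 below 0 and a median of −0.11 that ran from −0.2 without KO MI replicate 7 to −0.05 without KO MI replicate 2.

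The fetal and stress program had 14 of 16 tested genes above 0, 8 of them at an unadjusted p under 0.05, and a median of 0.59, with responses of 0.35, 0.3, 0.34 and 0.05 in WT MI and of 0.77, 1.77, 1.1 and 0.45 in KO MI. In the simple responses 11 of its genes were called higher in KO and 0 in WT, against 1070 and 430 of all 20159 genes. The median responses of the list were 0.79 and 0.33. Nppa, which encodes atrial natriuretic peptide, was at 60, 130, 41.2 and 57.2 CPM in WT SH, 43.2, 71, 67.3 and 112 CPM in KO SH, then 207, 180, 110 and 135 CPM in WT MI and 307, 2400, 778 and 150 CPM in KO MI. KO MI replicate 2 was far above the rest, replicate 7 lay within WT MI, and the interaction was 2.5 (standard error 0.83, adjusted p = 0.217, edgeR). Acta1, the skeletal alpha-actin of the fetal heart, was at 39.1, 63.4, 31.8 and 32 CPM in WT SH, 7.06, 14.3, 14.4 and 16.5 CPM in KO SH, then 74.7, 81.8, 35.1 and 82.4 CPM in WT MI and 83.8, 410, 119 and 53.8 CPM in KO MI (interaction 2.96, standard error 0.68, adjusted p = 0.146, edgeR). Acta1 was lowest in all KO SH libraries. Tnni1, the slow skeletal troponin I of the fetal ventricle, was the opposite, with an interaction of −0.49 (standard error 0.24, adjusted p = 0.374, edgeR). The median of the list was 0.38 without KO MI replicate 2.

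**Figure D5:**
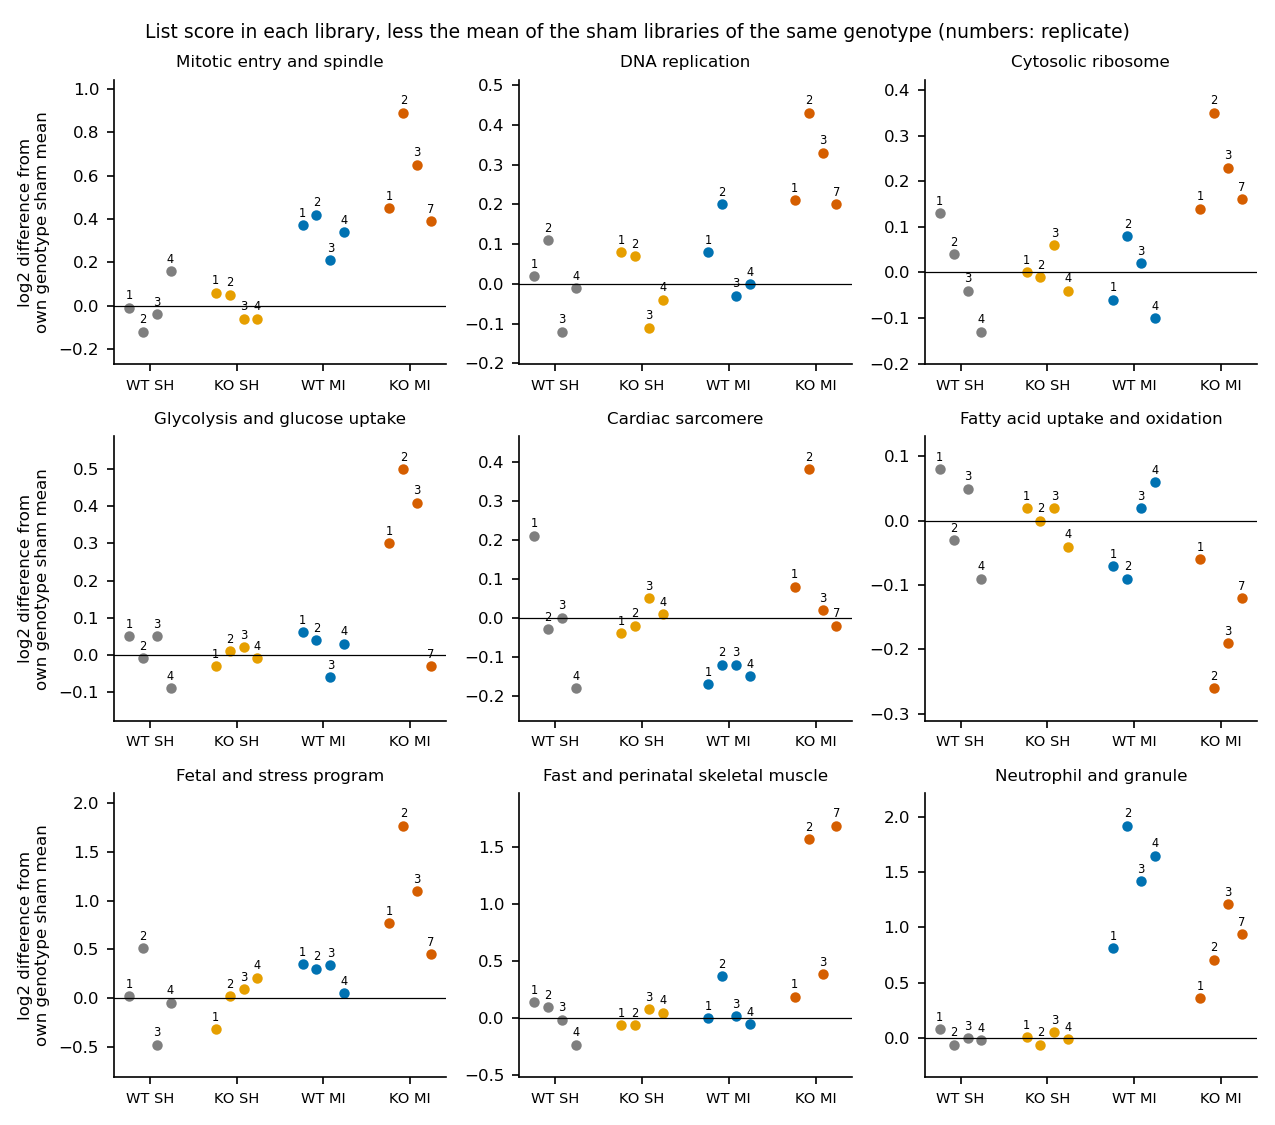
List score, the mean log2(CPM + 0.5) of the tested members, of each library less the mean of the 4 sham libraries of the same genotype, for 9 lists, with the replicate number above each point. KO MI lies above WT MI without overlap in the DNA replication, cytosolic ribosome, sarcomere and fetal lists, KO MI replicate 7 lies at the WT level for glycolysis (−0.03), and KO MI replicates 2 and 7 (1.57 and 1.69) set the skeletal muscle list apart.

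Genes of fast and perinatal skeletal muscle had the highest median, 1.38 over 19 tested members of 33, with 18 above 0 and 8 at an unadjusted p under 0.05, yet their responses overlapped in every gene. The untested members include Myh3, Tnnc2 and Actn3, which the study names. Their group sums ran from 8 to 2039, 0 to 202 and 6 to 132 counts, so they missed the minimum of 10 in every group. The score changed over its own sham mean by 0, 0.37, 0.02 and −0.05 in WT MI and by 0.19, 1.57, 0.39 and 1.69 in KO MI, so 2 libraries carried it. Without KO MI replicates 2 and 7, a pair chosen after seeing the data, the median was 0.25. The summed level of 5 defining skeletal muscle markers was 0.605 to 2.03 CPM in WT SH, 0.621 to 1.08 CPM in KO SH, 1.22 to 10.7 CPM in WT MI and 1.73 to 97.4 CPM in KO MI, and the part of such cells in the result was not tested. Casq1, calsequestrin of fast muscle, was at 27.3, 113, 34.7 and 10.5 CPM in KO MI and at 5.59 to 12.3 CPM in the other libraries, where replicate 7 lay within their range. Its interaction was 2.34 (standard error 0.65, adjusted p = 0.188, edgeR).

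The list of atrial cardiomyocyte genes had 8 of 9 tested members above 0 and a median of 1.12, and it rested on few libraries. Its score changed by −0.22, −0.34, 0.06 and −0.42 in WT MI and by 0.36, 0.02, 1.22 and 0.03 in KO MI. The median was 0.28 without WT SH replicate 2, 0.36 without KO MI replicate 3, 0.74 without KO SH replicate 4 and −0.05 without both WT SH replicate 2 and KO MI replicate 3, a pair chosen after seeing the data. In the fit with a term for sex the atrial median was 0.55. The summed level of 3 atrial markers was 3.4 to 8.5 CPM in WT SH, 3.7 to 4.86 CPM in KO SH, 2.47 to 4.18 CPM in WT MI and 3.31 to 8.52 CPM in KO MI, and the part of atrial tissue in the result was not tested. Globin and erythroid genes had 15 of 19 tested members above 0, 7 of them at an unadjusted p under 0.05, and a median of 0.67. Hba-a1, an alpha globin, was at 344, 407, 265 and 133 CPM in KO MI and at 139 to 232 CPM in the 12 other libraries, so replicate 7 was the lowest of all libraries and the other 3 were the highest (interaction 0.97, standard error 0.31, adjusted p = 0.21, edgeR). The erythroid median was 0.41 without WT SH replicate 2, 0.42 without KO MI replicate 2, 0.36 without KO MI replicate 3 and 0.92 without KO MI replicate 7. The summed level of 3 erythroid markers was 334 to 464 CPM in WT SH, 261 to 312 CPM in KO SH, 286 to 408 CPM in WT MI and 221 to 707 CPM in KO MI, and the part of retained blood in the result was not tested.

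The neutrophil and granule list lay farthest below 0, with a median of −1.47 over the 9 of 20 members that could be tested, of which 8 were below 0 and 4 at an unadjusted p under 0.05. All 9 were called higher in WT and 7 of the 9 in KO, against 430 and 1070 of all 20159 genes. The median responses of the list were 2.89 and 1.49. The score rose over its own sham mean by 0.81, 1.92, 1.42 and 1.65 in WT MI and by 0.36, 0.71, 1.21 and 0.94 in KO MI, with WT MI replicate 1 among the KO values. The size of this score depends on the pseudocount, since its interaction was −0.64 at 0.5, −1.19 at 0.05 and −0.31 at 2. The sham level was higher in KO (−0.15 ± 0.04) than in WT (−0.51 ± 0.06, SD, n = 4). S100a8, a calcium-binding protein of neutrophil cytosol, was at 0.192, 0.0802, 0.257 and 0.169 CPM in WT SH and at 0.699, 0.486, 0.48 and 0.236 CPM in KO SH. It was at 1.18, 3.87, 2.34 and 3.91 CPM in WT MI and at 0.874, 1.16, 1.85 and 1.36 CPM in KO MI, where the genotypes overlapped through WT MI replicate 1. S100a8 rose in both genotypes, by 3.99 on the log2 scale in WT (adjusted p = 9.41e-05, edgeR) and by 1.45 in KO (adjusted p = 0.0213, edgeR), and the interaction was −2.54 (standard error 0.6, adjusted p = 0.146, edgeR). The median of the list stayed between −1.77 and −1.18 in the fits without 1 library. These levels were low, so each value rests on few reads.

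Epicardial and mesothelial genes were the other list well below 0, with 11 of 17 below, 6 of them at an unadjusted p under 0.05, and a median of −0.59. In the simple responses 13 of the 17 were called higher in WT and 9 in KO, against 430 and 1070 of all 20159 genes. The median responses of the list were 1.56 and 0.7. The score rose over its own sham mean by 0.93, 1.35, 1.16 and 1.04 in WT MI and changed by −0.13, 0.93, 1.18 and 0.59 in KO MI, with KO MI replicate 1 the lowest. The sham score was again higher in KO (1.97 ± 0.08) than in WT (1.45 ± 0.23, SD, n = 4). The median was −1 without KO MI replicate 3, −0.36 without KO MI replicate 1 and −0.9 in the fit with a term for sex. The size of the score interaction depends on the pseudocount, at −0.48 with 0.5, −0.73 with 0.05 and −0.23 with 2. Msln, the surface glycoprotein of mesothelium, had an interaction of −1.41 (standard error 0.48, adjusted p = 0.226, edgeR), whereas Krt18, an epithelial keratin, lay above 0 at 1.22 (standard error 0.45, adjusted p = 0.252, edgeR).

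Most matrix genes lay above 0 in the interaction. All 19 collagen genes tested lay above 0, with 6 at an unadjusted p under 0.05 and a median of 0.24. In the simple responses 9 of them were called higher in KO and 2 in WT, against 1070 and 430 of all 20159 genes. The median responses of the collagen genes were 0.32 and 0.19. The basement membrane chains Col4a1 and Col4a2 had interactions of 0.32 and 0.33 (standard errors 0.12 and 0.12, adjusted p of 0.266 and 0.239, edgeR). Matrix remodelling and fibroblast activation genes had 29 of 35 tested members above 0, with 11 above and 0 below at an unadjusted p under 0.05, and a median of 0.28. Both medians were lower without KO MI replicate 2, at 0.15 for collagens and 0.14 for matrix remodelling. Resident fibroblast genes had 18 of 20 above 0 and a median of 0.19, with responses of −0.14 to −0.08 in WT MI and 0 to 0.17 in KO MI. The summed level of 3 fibroblast markers was 589 to 706 CPM in WT SH, 582 to 649 CPM in KO SH, 698 to 900 CPM in WT MI and 775 to 917 CPM in KO MI.

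Other immune lists did not share the direction of the neutrophil list. Monocyte and macrophage genes had 22 of 30 above 0 and a median of 0.36. The median was 0.12 without KO MI replicate 3 and 0.24 in the fit with a term for sex. In the simple responses 10 of the 30 were called higher in WT and 24 in KO, against 430 and 1070 of all 20159 genes. The median responses of the list were 0.6 and 1.06. Lymphocyte genes had 13 of 15 tested members above 0 and a median of 0.53, which was 0.24 without KO MI replicate 3, the library with the highest response of this list (0.76). Only 2 of them had an unadjusted p under 0.05. Their levels were low, with group mean scores from −0.38 to −0.03. The interaction of the lymphocyte score was 0.2 at a pseudocount of 0.5, 0.43 at 0.05 and 0.09 at 2. The interferon-stimulated genes had a median of 0.14 (0.02 without KO MI replicate 1), the antigen presentation genes 0.07 (0.17 without WT MI replicate 4), the complement and coagulation genes 0.07 (−0.06 without KO MI replicate 3) and the chemokine and interleukin genes 0.17 (0.3 without KO MI replicate 1).

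Proteostasis lists were mixed. The cytosolic heat shock list, which also holds the mitochondrial Hspe1, had 18 of 20 genes above 0, 9 of them at an unadjusted p under 0.05. Its median was 0.23, and its responses did not overlap, at −0.12 to −0.05 in WT MI and 0.05 to 0.35 in KO MI. Hspe1, the mitochondrial co-chaperonin, had an interaction of 0.48 (standard error 0.12, adjusted p = 0.15, edgeR), and Hspb6, a small heat shock protein of muscle, had 0.5 (standard error 0.13, adjusted p = 0.16, edgeR). The unfolded protein response and endoplasmic reticulum chaperone genes had a median of 0.09, with 0 above and 2 below at an unadjusted p under 0.05, and it was 0.04 without KO MI replicate 2 and 0.14 without KO MI replicate 1. The integrated stress and amino acid response genes had a median of 0.19, which was 0.09 without KO MI replicate 2, and the cholesterol synthesis genes had 19 of 24 above 0 and a median of 0.29, which was 0.13 without KO MI replicate 2.

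Several programs had medians close to that of all genes. These were Hippo-YAP (−0.03), Wnt (−0.04), Notch (−0.04), circadian clock (−0.05), endothelial (0.02), mural and smooth muscle (0.00) and nerve and Schwann (0.01) genes. Leaving out 1 library turned the sign of several, to 0.02 for Notch genes without KO MI replicate 7, to −0.09 for nerve genes without KO SH replicate 1 and to −0.02 for endothelial and −0.03 for mural genes without KO MI replicate 1. The TGF-beta and BMP and the neuregulin, IGF and FGF lists were at 0.09, the endocardial and valve genes at 0.1, G1/S entry at 0.15 and hypoxia targets at 0.14. Without 1 library these medians ran from 0.04 (KO MI replicate 2) to 0.15 (KO MI replicate 7) for TGF-beta and BMP genes and down to 0.03 (WT SH replicate 4) for the neuregulin list. They ran from 0.01 (KO MI replicate 3) to 0.17 (KO MI replicate 1) for endocardial genes and from 0.09 (WT MI replicate 3) to 0.21 (KO MI replicate 7) for hypoxia targets. The lymphatic endothelial list was at −0.14 and turned to 0.04 without WT MI replicate 3. Only 5 adipocyte and 3 lung epithelial genes could be tested, with medians of 0.09 and 0.17, the latter turning to −0.3 without WT SH replicate 4. A median near 0 did not mean that no member moved, since Apln, the apelin ligand of the endothelial list, had an interaction of 0.69 (standard error 0.16, adjusted p = 0.146, edgeR), and Bhlhe40, a repressor of the clock list, had 0.64 (standard error 0.15, adjusted p = 0.147, edgeR).

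Without KO MI replicate 7, 840 of 19994 genes were called (4.2%), 425 above and 415 below 0. All 840 had the same sign with all libraries, and 717 of them had an unadjusted p under 0.05 there. Both fits share every library but replicate 7, so this agreement is largely built in. Leaving out KO MI replicate 2, the library next farthest from its group, gave 5 calls among 19959 genes. Without WT SH replicate 4, 169 genes were called (0.854%), of which 125 were among the 840. DESeq2 with all libraries called 289 (1.43%), of which 264 were among the 840. That is 91.3% of the DESeq2 calls and 31.4% of the 840. All of these fits rest on the same counts, so the overlaps are a description and no separate support. Of the list genes, 136 were called without KO MI replicate 7, with 113 above and 23 below 0. Glycolysis and glucose uptake had 9 calls above 0 and 0 below, among them Hk2 (0.59, standard error 0.08, adjusted p = 0.00139, edgeR), Pgk1 (0.77, standard error 0.11, adjusted p = 0.00181, edgeR) and Gapdh (0.53, standard error 0.09, adjusted p = 0.00436, edgeR). The mixed list of PPAR-responsive, ketone and PDK genes had 7 calls below 0 and 2 above. Those below included Txnip, Acot1, Ucp3, Angptl4, Plin2 and Pdk4, and those above were Oxct1 and Esrrb. Of the fatty acid list only the transporter Slc27a1 was called, at −0.8 (standard error 0.15, adjusted p = 0.01, edgeR). Globin and erythroid genes had 9 calls above 0, the fetal and stress program 7 above with Tnni1 below, and the neutrophil list 4 below (S100a8, S100a9, Csf3r and Ngp). DNA replication had 6 calls above 0 (Mcm3, Mcm5, Mcm10, Pole, Chaf1a and Fen1), the mitotic list 4 (Smc2, Mki67, Kif15 and Incenp), histones 5, the sarcomere 5 (Xirp2, Actc1, Tnnc1, Des and Smpx), matrix remodelling 7 and heat shock 4. The cytosolic ribosome had 0 calls in this fit, with 45 of 74 genes above 0 at an unadjusted p under 0.05 and a median of 0.28.

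The direction of the interaction also differed between classes of transcript. Protein coding genes had a median of 0.03 over 14590 genes, lncRNAs −0.15 over 2149 and TEC transcripts −0.28 over 1639, with 21 TEC transcripts above and 271 below 0 at an unadjusted p under 0.05. The share of counts in TEC transcripts was 0.425% to 0.546% in WT SH, 0.521% to 0.543% in KO SH, 0.507% to 0.528% in WT MI and 0.474% to 0.587% in KO MI, with the highest share in KO MI replicate 7, and its part in the list medians was not tested. Of the genes taken from the smallest p in each direction that were not called, Mapt, the tau protein gene, had the form of the called genes that were high in WT SH, at 28.5 to 31 CPM there and 13.1 to 23.6 CPM elsewhere (interaction 0.66, standard error 0.13, adjusted p = 0.138, edgeR). Hsd17b7, of cholesterol synthesis, was instead apart in KO SH, at 32.4 to 36 CPM against 20.5 to 30.3 CPM elsewhere (interaction −0.47, standard error 0.1, adjusted p = 0.146, edgeR), and Btg1, an antiproliferative gene, had −0.39 (standard error 0.08, adjusted p = 0.145, edgeR).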

How the data were processed

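The authors deposited unnormalized expected counts from RSEM, given as whole numbers with 1 column per library. Per the study's methods, strand-specific read pairs of 150 bp were trimmed with Skewer, aligned to GRCm39 with STAR and quantified with RSEM. The submitters' processing notes instead name cutadapt 3.4 and HISAT2 2.2.1 beside RSEM 1.1.17, and which tools made the table was not settled. RSEM divides reads that match several genes, so counts of paralogs and overlapping genes are uncertain. The annotation release is not given in the sources used here, and GENCODE M39 (GRCm39) named 47772 of the 51912 genes.

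Models were fitted with edgeR 4.0.16 under R 4.3.3: TMM, a quasi-likelihood model with 1 coefficient per group over all 16 libraries, two-sided F-tests and Benjamini-Hochberg adjustment over all tested genes. The thresholds for a call were those of the study. Standard errors were derived from the F statistic. The script was tested on simulated data. The study counts hearts as its replicates, and the labels do not name the animal of a library.

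The members and the 52 lists (and 1 list of sex-linked genes) were chosen with earlier results of these data known. Lists were matched by symbol, and 1395 of 1398 symbols matched. The genes to name were the called genes and those with the smallest p in each direction up to 10. Up to 3 members per described list with the smallest p and genes the study names were added. Only some of these genes appear in the text. Nr4a1, Nr4a2, Ppargc1a, Gapdh, Nppa, Tnni1 and Hba-a1 were chosen after their values were seen. The same holds for Col4a1 and for the members called without KO MI replicate 7. The values of 1 list gene are not reported here singly. Numbers shared by replicates did not pair the libraries. Alternatives were DESeq2 (version 1.42.0), other filters and scalings, a robust fit, a replicate block, a sex term, other thresholds and each library left out.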

Additional observations from a re-analysis of the deposited data

Results flagged for a closer look

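The 5 called interactions, in which the response to MI differed between the genotypes by a test of the difference itself, were Nr4a3 (2.99), Gm43605 (1.68), Sik1 (0.84), Tomm40 (0.63) and Bhlhb9 (−0.51) on the log2 scale.

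Single libraries stood apart from the other 3 of their group in 11 of 228 groups of 4 values examined, and chance gives about 1 in 20 such groups. Sik1 was at 15.4 CPM in KO SH replicate 1, with the nearest other library at 19.3, and at 27.3 CPM in WT MI replicate 4, with the nearest at 22.2. The other 9 were list scores, in log2 units. In KO MI replicate 7 the mitochondrial ribosome was at 3.36 (nearest 3.57), the endothelial list at 4.81 (nearest 4.96) and the adipocyte list at 4.35 (nearest 4.1). In WT MI replicate 4 the fetal and stress program was at 4.77 (nearest 5.02) and the circadian clock at 3.73 (nearest 3.69). Complex I was at 5.37 in KO SH replicate 3 (nearest 5.31) and atrial cardiomyocyte genes were at 1.99 in KO SH replicate 4 (nearest 1.82). Chemokine and interleukin genes were at 1.13 in WT SH replicate 1 (nearest 1.07), and lung epithelial genes were at −0.51 in WT MI replicate 1 (nearest −0.24).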

How the results depend on the processing

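With all 16 libraries the interaction called 5 genes. It called 289 with DESeq2, 39 with no filter, 8 with a robust fit, 689 with the replicate block, 8 with a sex term read from Xist and 3 at an adjusted p under 0.05. All 5 genes were among the calls of the first 5 of these fits. Leaving out 1 library gave from 2 to 840 calls, with 840 without KO MI replicate 7 and 169 without WT SH replicate 4. Added after seeing the data, the fit without KO MI replicates 2 and 7 called 369 and that without WT SH replicate 2 and KO MI replicate 3 called 2. The cause of the differences was not tested. With no minimum log2 value the WT response called 1071 genes and the KO response 3536, and without 1 library they called from 283 to 690 and from 885 to 2180.

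The replicate numbers did not pair the libraries. Deviations from the group mean correlated from −0.131 to 0.175 over 21 pairs with the same number, with 3 above 0.1. KO MI replicate 7 is alone in its block, so the block takes it out of the contrast.

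Of the named genes, those called in any fit had 1 direction in all fits. Uncalled interactions near 0 changed sign without 1 library for Ccnb1 (−0.11 to 0.16), Rpl3 (−0.11 to 0.19), Ager (−0.07 to 0.6), Muc1 (−0.3 to 0.45) and Tsix (−0.36 to 0.03). Named genes kept their side of the threshold in 5610 comparisons, came past it in 328 and lost it in 37. List medians moved by at least the pooled SD of the list score between replicates in 72 comparisons and by less in 1517. The depth limits genes of low count, such as the neutrophil and lymphocyte lists.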
